A study of Mus musculus with 4 samples.

Results

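The genes described here carry out or control the synthesis, uptake, intracellular transport and efflux of cholesterol. They were 30 genes chosen by name from the known pathway, of 55487 gene IDs in the count table, and all 30 were found by symbol and passed the filter on low counts. The choice was made with earlier results of these data known, so comparisons of these genes with all genes are descriptive. They comprise 5 genes of SREBP control, 8 of the mevalonate arm to squalene, 10 of the arm from squalene to cholesterol, 3 of intracellular sterol transport and 4 of the LXR arm. RNA sequencing had been done on group 2 innate lymphoid cells (ILC2s), lymphocytes without antigen receptors that secrete type 2 cytokines, sorted from the mouse colon. Every culture held IL-33, IL-25, IL-7 and IL-2, which activate these cells and keep them alive. The control group (n = 2 libraries) is labelled only as control, and the other group (n = 2) received FK866 for 16 h, a small-molecule inhibitor of NAMPT, the enzyme that salvages nicotinamide into NAD+. The labels name no strain, age, sex, dose or vehicle, and do not say whether the 2 replicates of a group came from separate animals or cultures, and if they did not, the p-values here reflect technical spread only.

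Cells make cholesterol from acetyl-CoA through mevalonate, farnesyl diphosphate and squalene. When membrane sterol is low, the chaperone SCAP carries the SREBP transcription factors from the endoplasmic reticulum to the Golgi, where proteases release their active part, and INSIG proteins hold the complex back when sterol is plentiful. When sterols accumulate, oxysterols activate the liver X receptors (LXRs), which raise transporters that export cholesterol and the ubiquitin ligase MYLIP. Lymphocytes raise the SREBP program when they are activated and build new membrane.

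Library totals ranged from 27617750 to 37841233 counts, and the members together held 66419 to 113647 counts per library. In FK866 replicate 2, 22461 gene IDs reached 10 counts, more than the 17152 to 18667 of the remaining libraries. The libraries of a group differed by more than sampling noise (chi-square per degree of freedom 28.8 between controls and 15.6 between FK866 libraries). All 12 ILC2 markers were present, with a summed level of 4637 to 5861 CPM (counts scaled to TMM-adjusted library size) per library. With FK866, 3 of them were called lower, Il13 (log2 fold change -1.49), Nmur1 (-1.18) and Icos (-0.84), and 1 higher, Rora (1.70). The shares of all genes tested were 7.89% lower and 5.31% higher. Among markers of other cells, those reaching 5 CPM in any library were Cd3g and Lat (T cells), Cd79b (B cells), Cd68 (macrophages), Il22 (group 3 innate lymphoid cells), Epcam (epithelium) and Pecam1 (endothelium), and of these Cd68 alone was called. Krt8, an epithelial keratin, had no count in any library. Because these are bulk samples, fewer cells with a transcript and less of it per cell cannot be told apart.

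With FK866, transcripts of most cholesterol synthesis enzymes fell, at steps from the first thiolase to the last reductase, while the cholesterol exporter gene Abcg1 rose. Of the 30 genes 15 fell, 1 rose and 14 did not pass the test (quasi-likelihood F test of edgeR over 19194 genes, threshold 0.05 on the Benjamini-Hochberg adjusted p). Over all genes tested, 7.89% were called lower and 5.31% higher. Among the 10345 genes that passed a stricter filter these shares were 15.9% and 17.5%, and 16 of the 29 members left there were called lower. The levels of the groups did not overlap for 28 of the 30 genes, where 57.7% of all genes tested showed no overlap. All 18 synthesis enzymes had a fold change below 0, 13 of them fell, and their median log2 fold change was -0.89, against 0.03 for all genes tested. Summed over the 18 enzymes, the level was 1960 and 2225 CPM in the controls and 1275 and 1088 CPM in the FK866 libraries, a ratio of 0.565 between the group means.

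**Figure D1:**
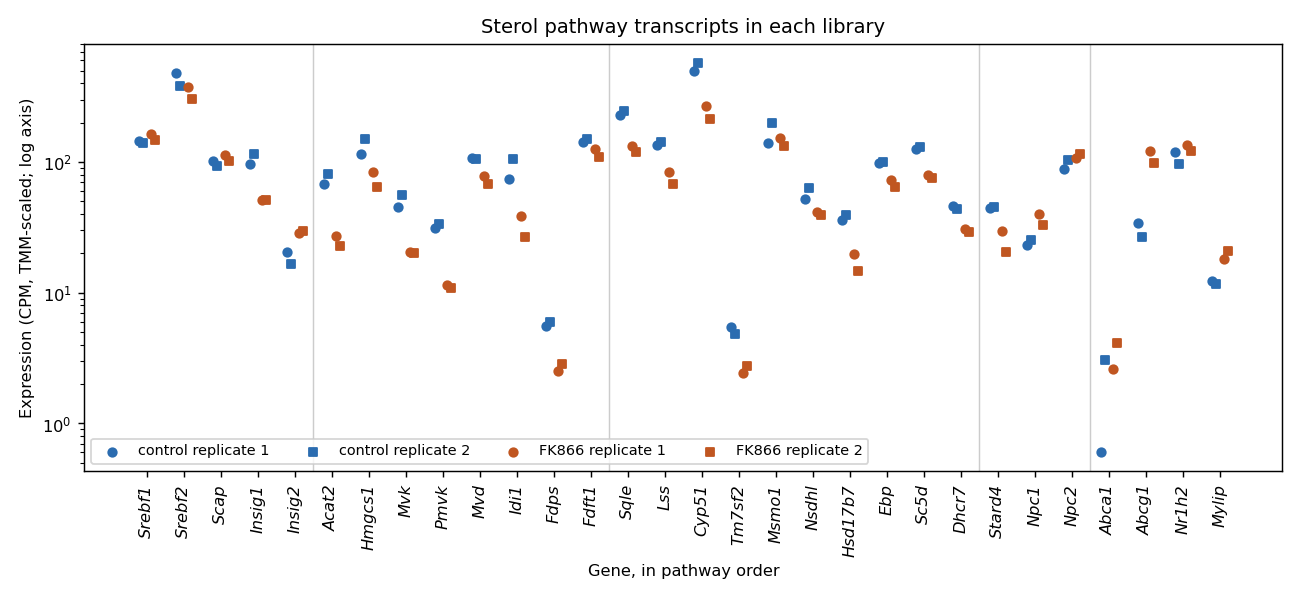
Expression of the 30 sterol pathway genes in each library, in TMM-scaled CPM on a log axis, in pathway order from SREBP control to the LXR arm; circles are replicate 1, squares replicate 2, and grey lines separate the gene groups. The FK866 libraries lie below the controls for 17 of the 18 synthesis enzymes, all but Msmo1, and above them for 8 genes (Srebf1, Scap, Insig2, Npc1, Npc2, Abcg1, Nr1h2 and Mylip), of which Abcg1 was called.

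The 3 deepest falls, of Acat2, Pmvk and Idi1, were all in the mevalonate arm. Acat2 encodes the cytosolic thiolase that joins acetyl-CoA units at the start of the route (ENSMUSG00000023832, mm10 chromosome 17, 12942890 to 12960747, minus strand). It stood at 67.8 and 80.5 CPM in the controls and at 27.0 and 22.8 CPM with FK866. The log2 fold change came to -1.57 ± 0.17 (SE) on the log2 scale (adjusted p = 0.00163). Its transcript shares 1477 nt at 97.7% identity with Acat3, which had 17 to 29 counts per library. It shares 445 nt at 98.7% with the abundant Tcp1, so some of its reads are uncertain. Tcp1 had 27383 and 24777 counts in the controls and 14320 and 15271 with FK866. The part of Tcp1 reads in the fall of Acat2 was not tested. Hmgcs1, the synthase that forms HMG-CoA, had 115 and 150 CPM in the controls and 83.7 and 64.9 CPM with FK866. It fell by 0.83 on the log2 scale (adjusted p = 0.0206). Control replicate 2 and FK866 replicate 2 were the extremes for Hmgcs1, and it was not called once FK866 replicate 2 was left out (log2 -0.64, adjusted p = 0.088).

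The 3 enzymes that turn mevalonate into isopentenyl diphosphate act in the order Mvk, Pmvk and Mvd. The kinase Mvk went from 45.0 and 56.4 CPM to 20.6 and 20.3 CPM, and it fell by 1.31 on the log2 scale (adjusted p = 0.00403). Pmvk, the second kinase, went from 31.1 and 33.5 CPM to 11.57 and 10.97 CPM, and it fell by 1.52 (adjusted p = 0.00271). For both kinases the FK866 libraries lay close together and at less than the lower control. The decarboxylase Mvd changed less, from 107 and 105 CPM to 77.6 and 68.1 CPM, a fall by 0.54 (adjusted p = 0.036). Mvd was no longer called when FK866 replicate 2 was left out (log2 -0.43, adjusted p = 0.332), when no filter was used (adjusted p = 0.0895) or after correction for the trend of fold change on transcript length and GC content (log2 -0.31, adjusted p = 0.143).

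Past isopentenyl diphosphate, Idi1, the isomerase that makes dimethylallyl diphosphate, stood at 74.2 and 105 CPM in the controls and at 39.0 and 26.5 CPM with FK866. It fell by 1.46 on the log2 scale (SE 0.23, adjusted p = 0.00659), the largest SE among the called enzymes. The Idi1 transcript shares 684 nt at 100% identity with the pseudogene Gm13502, which had 4 to 36 counts per library. It shares 681 nt at 97.7% with the pseudogene Gm35570, so some of its reads are uncertain. Fdps, which makes farnesyl diphosphate, was counted at only 5.59 and 6.01 CPM in the controls and 2.52 and 2.85 CPM with FK866. Its log2 fold change of -1.11 had an SE of 0.32 and did not pass (adjusted p = 0.0551). It did pass by DESeq2 and with the stricter filter (adjusted p = 0.0424 and 0.0463), and it was -1.26 without control replicate 1. The low level of Fdps goes with 68 to 203 counts per library, and 26.7% of its exon bases lie in exons of Gm43738 on the same strand. Fdft1, squalene synthase, is the enzyme that commits farnesyl diphosphate to sterols. It had 144 and 150 CPM in the controls and 126 and 109 CPM with FK866. The log2 fold change of -0.32, with a 95% interval of -0.63 to -0.01, did not pass (adjusted p = 0.168). It was -0.45 without control replicate 1. For Fdft1, 18.3% of the exon bases overlap Ctsb on the other strand, and these libraries do not mark the strand. The Fdft1 transcript also shares 1249 nt at 97.4% identity with the pseudogene Gm6781, which had 14 to 51 counts per library.

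From squalene onward 7 of 10 enzymes fell and 0 rose. Sqle, the epoxidase that starts sterol formation with oxygen, went from 228 and 244 CPM to 133 and 120 CPM, and fell by 0.90 on the log2 scale (adjusted p = 0.00491). Lss, which cyclises squalene epoxide to lanosterol, went from 136 and 143 CPM to 83.6 and 68.5 CPM, and fell by 0.88 (adjusted p = 0.00787). Cyp51, the lanosterol demethylase, was the enzyme with the highest level per length in the controls, at 121 CPM per kb of exon (ENSMUSG00000001467, chromosome 5, 4081145 to 4104746, minus strand). The 4 libraries held 501, 569, 271 and 215 CPM of Cyp51, in the order control 1, control 2, FK866 1 and FK866 2. The fall was 1.14 on the log2 scale (SE 0.15, adjusted p = 0.0035), and Cyp51 was also the most abundant of the 18 per length with FK866, at 55.0 CPM per kb.

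The enzymes that take methyl groups and double bonds off the sterol ring differed in size of change. Tm7sf2, a sterol reductase acting after Cyp51, was low, at 5.48 and 4.88 CPM in the controls and 2.45 and 2.73 CPM with FK866. Its log2 fold change of -0.997 ± 0.33 (SE) did not pass (adjusted p = 0.0849). Of the Tm7sf2 exon bases, 12.1% lie on the same strand in exons of Vps51, which had 1215 to 2154 counts per library. Msmo1, the methyl oxidase of the demethylation complex, was the only synthesis enzyme whose groups overlapped, with 141 and 199 CPM in the controls and 153 and 133 CPM with FK866. Its log2 fold change was -0.25, with a 95% interval of -0.66 to 0.16 (adjusted p = 0.414). It was 0.02 without control replicate 2 and -0.58 without control replicate 1. Nsdhl, the dehydrogenase of the same complex, had 52.4 and 63.7 CPM in the controls and 41.3 and 39.7 CPM with FK866, a log2 fold change of -0.52 that did not pass (adjusted p = 0.0674). It passed by DESeq2 (adjusted p = 0.0423) and with library sizes taken before the filter (adjusted p = 0.0494). Without control replicate 1 it was -0.75. Hsd17b7, the ketosteroid reductase that completes that complex, fell from 36.3 and 39.3 CPM to 19.7 and 14.6 CPM (log2 -1.14, adjusted p = 0.00941). Among the 3 enzymes of the demethylation complex the fold changes therefore ran from -1.14 to -0.25, and the difference between them was not tested.

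The last steps, Ebp, Sc5d and Dhcr7, all fell. Ebp, the sterol isomerase, went from 99.2 and 100.8 CPM to 72.6 and 64.3 CPM and fell by 0.55 on the log2 scale (adjusted p = 0.0349). Sc5d, the desaturase that follows, went from 126 and 131 CPM to 80.2 and 75.3 CPM and fell by 0.72 (adjusted p = 0.0105). Dhcr7, the reductase that yields cholesterol from 7-dehydrocholesterol, went from 45.7 and 43.4 CPM to 30.6 and 29.2 CPM and fell by 0.58 (adjusted p = 0.0462). The calls for Ebp, Sc5d and Dhcr7 were lost without FK866 replicate 2 (adjusted p = 0.322, 0.0739 and 0.297), that for Dhcr7 also without FK866 replicate 1 (0.0724). With no filter Ebp and Dhcr7 were not called (adjusted p = 0.0864 and 0.0761), and after the length and GC correction Ebp stood at -0.36 (adjusted p = 0.108). In order along the route, the median log2 fold change was -1.21 for the 8 genes up to squalene and -0.80 for the 10 after it.

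**Figure D2:**
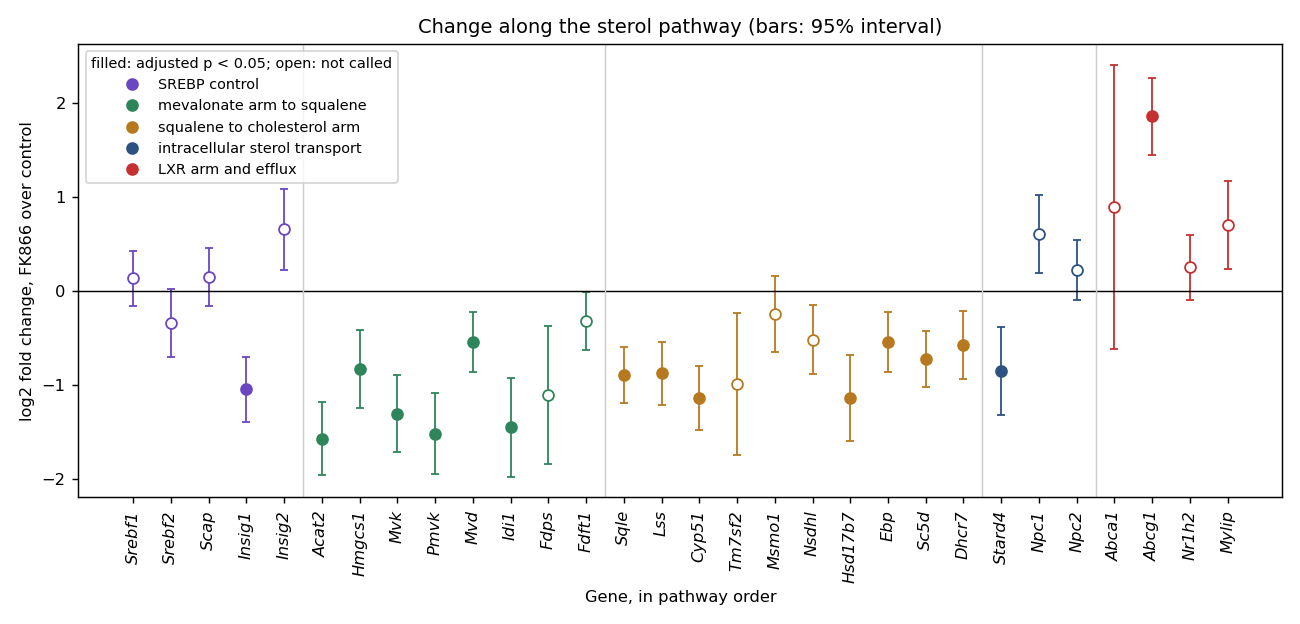
Log2 fold change of FK866 over control for the 30 genes in pathway order, coloured by role, with 95% intervals; filled points passed the test at an adjusted p under 0.05 and open points did not. The 18 enzymes from Acat2 to Dhcr7 all lie below 0, and Abcg1, at 1.86, is the highest point.

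As each library was left out in turn, the number of synthesis enzymes called lower ranged from 8 of 18 without FK866 replicate 2 to 17 without control replicate 1. Leaving out a library leaves its group without a replicate, so the spread in these fits came from the other group alone. Calls in these fits are therefore not comparable with those from all 4 libraries. All 18 fold changes stayed below 0 in those 4 fits except that of Msmo1 without control replicate 2. Insig1, Acat2, Mvk, Pmvk, Idi1, Sqle, Lss, Cyp51, Hsd17b7 and Abcg1 were called in every alternative run. Fold changes were higher for longer transcripts (rho 0.332 by Spearman, over 9369 expressed protein-coding genes, which are not independent). The longest transcripts of the synthesis enzymes had a median of 2998 nt, against 3468 nt for those genes. After the length and GC correction, the median of the enzymes was -1.004 and 11 were called.

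**Figure D3:**
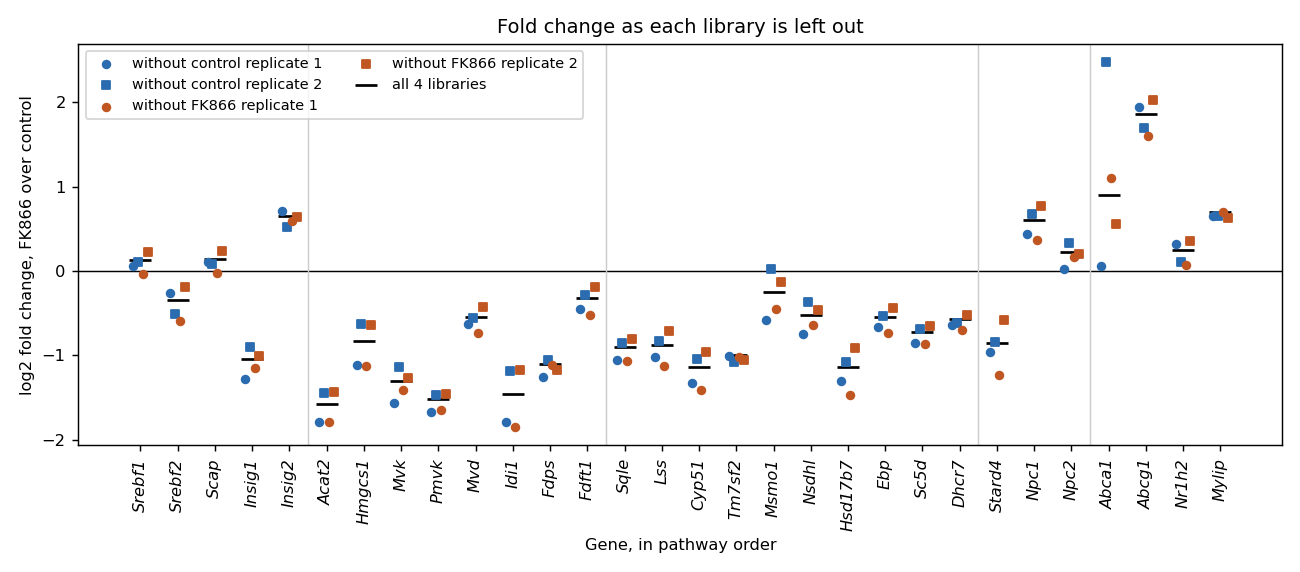
Log2 fold change of FK866 over control for each gene with all 4 libraries (black dash) and with each library left out in turn (blue: a control left out; orange: an FK866 library left out). The points for Abca1 spread from 0.06 to 2.47, while those for Mylip stay between 0.63 and 0.70.

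Promoter sequence was searched for known motifs, as description without a test. RefSeq promoter windows on GRCm38.p6 (250 bases before to 50 after each annotated start) were held for 24 of the 30 genes, 15 of them enzymes. They were searched on both strands for the sterol regulatory element core TCACNCCAC, which SREBPs bind, the NF-Y box CCAAT, bound by a factor known to work beside SREBPs, and the E-box CACGTG. The NF-Y box was found for 14 of 15 enzymes (93.3%) and for 20 of 24 members (83.3%), where 42.6% of 12151 tested genes with a window held it. It was not confined to the genes that fell. The uncalled Srebf1, Srebf2, Insig2, Tm7sf2, Msmo1, Nsdhl, Npc2 and Mylip also held it, and Srebf1, Insig2, Npc2 and Mylip had positive fold changes. The sterol regulatory element core was found only for Hmgcs1 among the 24 members with a window (1.36% of tested genes). The E-box was found for 3 of 15 enzymes and 6 of 24 members (10.8% of tested genes). The LXR element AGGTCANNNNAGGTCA was found for 0 of 24 members and 0 of the tested genes. A pattern that no tested gene holds cannot set the members apart. Abcg1 had no window and was not searched, nor were Fdps, Fdft1, Sqle, Stard4 and Npc1. A match is a run of letters and does not show that a factor binds there. A missing match does not show that a gene lacks a site, because only exact patterns within these windows were searched. The stretches below run 5′ to 3′ from base -220 to base -1 before the RefSeq start. Motif matches on either strand are in capitals (a box on the other strand reads ATTGG). They show Hmgcs1, which holds both kinds of element, Mvk, which holds 5 NF-Y boxes, and the feedback gene Insig1. They also show Acat2, which fell most and holds none, and the LXR target Mylip, which holds 3 NF-Y boxes and was not called.
Hmgcs1: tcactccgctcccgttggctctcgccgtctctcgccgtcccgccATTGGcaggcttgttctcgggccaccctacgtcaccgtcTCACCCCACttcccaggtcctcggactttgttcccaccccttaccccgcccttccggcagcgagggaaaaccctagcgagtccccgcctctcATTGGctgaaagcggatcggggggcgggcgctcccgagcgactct
Mvk: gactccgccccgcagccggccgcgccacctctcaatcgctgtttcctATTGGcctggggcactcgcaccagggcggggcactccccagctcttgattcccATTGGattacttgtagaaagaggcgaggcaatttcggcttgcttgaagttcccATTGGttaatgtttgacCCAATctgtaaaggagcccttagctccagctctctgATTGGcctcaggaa
Insig1: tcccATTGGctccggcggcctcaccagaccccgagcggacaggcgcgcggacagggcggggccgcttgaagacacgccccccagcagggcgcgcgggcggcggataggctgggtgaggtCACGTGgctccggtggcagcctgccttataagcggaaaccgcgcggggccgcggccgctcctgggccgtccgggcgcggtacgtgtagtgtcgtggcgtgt
Acat2: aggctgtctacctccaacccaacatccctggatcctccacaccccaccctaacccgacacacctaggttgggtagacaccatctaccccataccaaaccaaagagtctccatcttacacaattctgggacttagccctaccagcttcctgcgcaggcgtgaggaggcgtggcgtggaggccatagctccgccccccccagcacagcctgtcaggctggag
Mylip: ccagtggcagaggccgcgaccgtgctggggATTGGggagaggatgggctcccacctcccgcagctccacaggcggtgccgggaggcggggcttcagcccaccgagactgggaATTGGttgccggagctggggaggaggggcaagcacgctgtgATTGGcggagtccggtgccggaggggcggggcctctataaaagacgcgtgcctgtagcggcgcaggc

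In Hmgcs1 (chr13:119690131-119690350, plus strand) the sterol element spans -137 to -129, between boxes that begin at -176 and -45. The window of Mvk (chr5:114444049-114444268, plus strand) has boxes that begin at -173, -120, -67, -50 and -14. That of Insig1 (chr5:28071192-28071411, plus strand) has 1 box at -216 and an E-box at -101. The windows of Acat2 (chr17:12960726-12960945, minus strand) and Mylip (chr13:45389522-45389741, plus strand) complete the set. The gene positions given in this text are from the GENCODE annotation, whose starts can differ from those of RefSeq. Part of the Insig1 and Acat2 stretches lies inside the GENCODE gene. The GENCODE start of Hmgcs1 lies past the end of its stretch, at 119690379.

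Among the regulators, the transcripts of the SREBPs and of SCAP showed no called change, and Insig1 was the 1 gene of the 5 that was called. Srebf1, which encodes the SREBP form tied more to fatty acid synthesis, stood at 145 and 139 CPM in the controls and 164 and 148 CPM with FK866 (log2 0.13, 95% interval -0.16 to 0.43, adjusted p = 0.574). Srebf2, whose product mainly drives cholesterol genes, stood at 482 and 381 CPM in the controls and 374 and 306 CPM with FK866 (log2 -0.34, 95% interval -0.71 to 0.02, adjusted p = 0.198). The FK866 libraries were the lower pair for Srebf2, by little, and it became a lower call after the length and GC correction (-0.47, adjusted p = 0.0346). As each library was left out, Srebf2 ran from -0.60 to -0.19. Scap had 101.3 and 93.3 CPM in the controls and 113 and 102 CPM with FK866 (log2 0.14, adjusted p = 0.558). These values concern transcripts; SREBP activity depends on cleavage of the protein, which RNA counts do not measure.

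Insig1, itself an SREBP target that feeds back on the pathway, fell (ENSMUSG00000045294, chromosome 5, 28071363 to 28078662, plus strand). It stood at 96.0 and 116 CPM in the controls and at 51.7 and 50.9 CPM with FK866, a log2 fold change of -1.05 ± 0.15 (SE, adjusted p = 0.00475). Its paralogue Insig2, which performs the same retention but is not under the same SREBP control, stood at 20.5 and 16.7 CPM in the controls and at 28.7 and 29.9 CPM with FK866. Both FK866 libraries were above both controls, and the log2 fold change of 0.66 ± 0.19 (SE) missed the threshold (adjusted p = 0.0554). It was called higher by DESeq2 (0.68, adjusted p = 0.0157) and with library totals or upper-quartile scaling (adjusted p = 0.0352 and 0.0384). With the stricter filter and after the length and GC correction it was also called higher. As each library was left out, Insig2 ran from 0.52 to 0.71. Per length of exon, Insig1 was 5.26 and 7.81 times as abundant as Insig2 in the controls and 2.02 and 1.91 times as abundant with FK866.

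Of the transport genes, Stard4, a soluble carrier that moves cholesterol between membranes and an SREBP target, fell. It stood at 44.6 and 45.3 CPM in the controls and at 29.6 and 20.3 CPM with FK866 (log2 -0.85 ± 0.21, SE, adjusted p = 0.0293). The FK866 replicates of Stard4 lay further apart than the controls, and leaving out FK866 replicate 2 ended the call (-0.58, adjusted p = 0.222). Npc1, the late endosomal protein that releases cholesterol taken up with lipoproteins, stood at 23.1 and 25.2 CPM in the controls and at 40.4 and 33.2 CPM with FK866. Its log2 fold change of 0.61 ± 0.18 (SE) did not pass (adjusted p = 0.0608). It was called by DESeq2 (0.64, adjusted p = 0.0165) and with library totals, upper-quartile scaling or the stricter filter. As each library was left out, it ran from 0.36 to 0.76. It was 0.36 without FK866 replicate 1 and 0.42 after the length and GC correction, and neither value was called. Npc2, the small partner that hands cholesterol to NPC1, had 89.2 and 103 CPM in the controls and 108 and 116 CPM with FK866 (log2 0.22, 95% interval -0.10 to 0.54, adjusted p = 0.355).

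In the LXR arm, Abcg1 rose more than any other gene of the 30. It encodes a transporter that passes cholesterol from the cell to lipoprotein particles (ENSMUSG00000024030, chromosome 17, 31057675 to 31117988, plus strand). It stood at 34.1 and 26.7 CPM in the controls and at 122 and 98.7 CPM with FK866, 3.63-fold higher. On the log2 scale this was 1.86 ± 0.18 (SE, adjusted p = 0.00117), and 1.60 to 2.02 as each library was left out. Markers of macrophages and dendritic cells, cells that also express Abcg1, summed to 4.95 and 6.78 CPM in the controls and to 14.6 and 12.5 CPM with FK866. Of those 8 markers 5 stayed below 1 CPM in every library, including Csf1r, and C1qa had a count only in control replicate 2, while Cd68 rose from 3.47 and 3.13 CPM to 9.23 and 8.29 CPM. Adgre1, another macrophage marker, stood at 0.165 and 0.951 CPM in the controls and at 3.45 and 1.15 CPM with FK866. Lyz2 stood at 0.495 and 0 CPM in the controls and at 0.667 and 1.06 CPM with FK866. For C1qb these were 0.0826 and 0.491 CPM in the controls and 0 and 0.235 CPM with FK866. The part of such cells in the level of Abcg1 was not tested.

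The other genes of that arm did not pass. Abca1, the partner exporter and a strong LXR target in other cells, was low, with 22 and 99 counts in the controls and 70 and 141 counts with FK866. Its groups overlapped, at 0.606 and 3.04 CPM against 2.60 and 4.15 CPM, and its log2 fold change of 0.90 had a 95% interval of -0.62 to 2.41 (adjusted p = 0.435). It was 0.06 without control replicate 1 and 2.47 without control replicate 2. Mylip, which encodes an LXR-induced ubiquitin ligase that limits lipoprotein uptake, stood at 12.4 and 11.6 CPM in the controls and at 18.3 and 20.8 CPM with FK866. Its log2 fold change of 0.70 ± 0.21 (SE) missed the threshold (adjusted p = 0.057), and it was called by DESeq2, with library totals or upper-quartile scaling, with the stricter filter and after the length and GC correction (adjusted p = 0.0196, 0.0443, 0.0482, 0.0217 and 0.0413). Nr1h2, which encodes LXRβ, had 120 and 96.3 CPM in the controls and 136 and 121 CPM with FK866 (log2 0.25, adjusted p = 0.331; 0.48, a call, after the length and GC correction). The gene of the other receptor, Nr1h3, was below the filter, with at most 0.222 CPM in any library.

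Genes next to the members in the same biology were taken from 5 further lists of 76 genes, of which 71 were tested, 18 fell and 5 rose. These were 25.4% lower and 7.04% higher, against 7.89% and 5.31% of all genes tested, so the share higher was near that of all genes. Among the genes that passed the stricter filter, 15.9% were called lower and 17.5% higher. In the 5 lists, in the order below, 31.2%, 8.33%, 41.7%, 27.3% and 11.1% were called lower. The shares higher were 12.5%, 8.33%, 0%, 4.55% and 11.1%. Shares of 4.55%, 8.33% and 11.1% are 1 gene each. The lists gave mixed directions. Of 16 genes that use farnesyl diphosphate for other products, 5 fell and 2 rose (median -0.13), with Dolk, which makes dolichyl phosphate, at -1.05, the coenzyme Q gene Coq2 at -0.97 and the farnesyltransferase subunit Fnta at -0.63. The risen ones were Icmt, which methylates prenylated proteins (0.72), and the prenylation subunit gene Rabggtb (0.58). Without FK866 replicate 2, 1 of the 16 (Dolk) was called lower and 0 higher. Icmt and Rabggtb were also not called without FK866 replicate 1, nor Rabggtb without control replicate 1 or with no filter. Of 12 genes of SREBP processing and sterol-regulated degradation, Rnf139 rose (0.76) and Rnf145 fell (-0.52), both ligase genes, with a median of 0.00. Neither was called without FK866 replicate 2 (for Rnf139 adjusted p = 0.0556, for Rnf145 log2 -0.38 and adjusted p = 0.396), nor was Rnf145 with no filter. Of 12 genes of acetyl-CoA and fatty acid synthesis 5 fell and 0 rose (median -0.38). They included the desaturase Scd2 (161 and 199 CPM to 40.05 and 54.5 CPM, log2 -1.92), the fatty acid synthase gene Fasn (-1.21), the elongase Elovl6 (-0.98) and the mitochondrial citrate carrier Slc25a1 (-0.68). Scd2, Fasn and Elovl6 were called in all alternatives run, whereas Slc25a1 was not called without FK866 replicate 2 (adjusted p = 0.0794) or after the length and GC correction (-0.42).

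Of 22 genes of sterol esterification, transport and storage, 6 fell and 1 rose (median -0.08). Tmem97, a regulator of NPC1, fell from 147 and 147 CPM to 65.7 and 67.3 CPM (log2 -1.14). The lipoprotein receptor Scarb1 was at -1.12, the acyl-CoA binding protein Dbi at -1.09 and Lbr, a lamin receptor that is also a sterol reductase, at -0.63. The gene that rose was Gramd1a (0.79), whose product carries cholesterol from the plasma membrane to the endoplasmic reticulum. Lbr was not called without FK866 replicate 2 (adjusted p = 0.162), nor Gramd1a without FK866 replicate 1 (0.56, adjusted p = 0.0628). Of 9 tested genes of the LXR receptor and target list, Lpcat3, a phospholipid remodelling enzyme and LXR target, fell (202 and 190 CPM to 106 and 98.7 CPM, log2 -0.94, adjusted p = 0.00424). The corepressor Ncor1 rose (0.59, adjusted p = 0.0206), but was not called with no filter, without control replicate 1, without FK866 replicate 1 or after the length and GC correction, where it stood at 0.25 (adjusted p = 0.241). Abcg1 and Lpcat3, both LXR targets, were called in opposite directions. Fold changes of the LXR targets that were not called also went both ways.

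**Figure D4:**
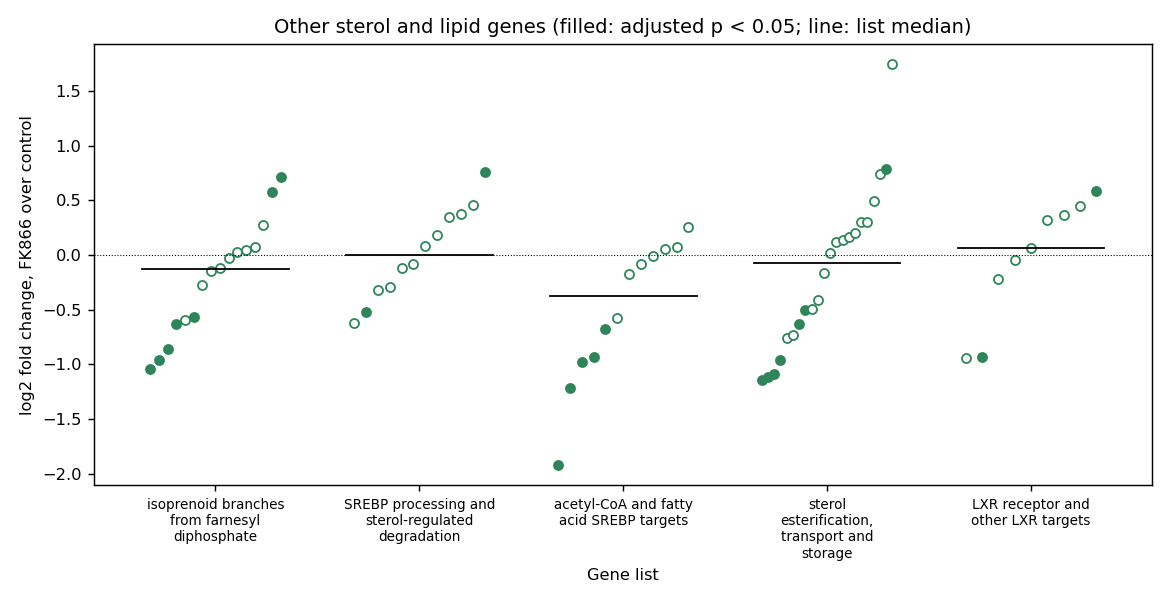
Log2 fold change of FK866 over control for the tested genes of the 5 further lists, sorted within each list; filled points passed the test at an adjusted p under 0.05 and black lines mark list medians. The fatty acid list reaches -1.92 at Scd2, and the called points of the isoprenoid list lie on both sides of 0.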

How the data were processed

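The deposited values are raw counts of reads, 1 row per Ensembl gene ID and 1 column for each of 4 libraries, as the whole numbers and the file header show. The tools named are cutadapt 1.9 and HISAT2 2.2.1, and the build mm10, per the submitters' processing notes. What counted the reads, on which annotation and with which strand setting, is not given in the sources used here. Libraries were made with SMART-Seq HT and Nextera XT kits, per the labels' protocols; this chemistry does not mark the strand. GENCODE M21 (GRCm38) gave positions, exon lengths and GC content. Symbols came from a list of gene names matched by Ensembl ID, with RefSeq synonyms where a listed symbol was not found. Counts were tested in R 4.3.3 with edgeR 4.0.16 (quasi-likelihood F test, legacy dispersions, two-sided), with TMM scaling, library sizes recomputed after filterByExpr (minimum count 10, minimum total 15) and treatment as the only term. CPM use the same scaling. The SE is the ratio of the absolute log2 fold change to the root of F, and the 95% interval uses the t distribution with the moderated degrees of freedom. The procedure was tested on simulated data. Near-identical copies were sought with blastn (at least 95% identity over 400 nt).

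The members, the gene lists and the tests were chosen with earlier results of these data known. All 30 members are named. From each further list up to 4 called genes with the smallest adjusted p were named, or, with none called, the 2 most abundant. Rabggtb and Gramd1a, the markers, and the 5 genes whose promoter stretches are printed were chosen after their values were seen. Some genes of the pathway are not reported here. The alternatives were DESeq2 1.42.0, 2 other scalings, 2 other filters, each library left out, a replicate block, and removal of the trend on transcript length and GC content. Leaving out a library leaves its group without a replicate, so the spread in such a fit came from the other group alone.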

Additional observations from a re-analysis of the deposited data

How the results depend on the processing

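The counts of genes called lower were 15 members, 13 synthesis enzymes, 18 genes of the further lists and 1514 of all genes, and no synthesis enzyme was called higher under any alternative. As each library was left out, these counts ranged from 9 to 19, from 8 to 17, from 10 to 21 and from 828 to 2462, with the lowest of each without FK866 replicate 2. Members called higher, 1 with all libraries, were 4 by DESeq2, with library totals, with upper-quartile scaling, with the stricter filter (minimum count 100) and after the length and GC correction, and 1 to 3 as each library was left out. The further lists had 5 called higher, 10 with the stricter filter and 1 to 5 as each library was left out. All genes called higher were 1020, 1808 with the stricter filter, and 661 to 1457 as each library was left out. The replicate numbers give a single pair per number with nothing in the labels to say that they mark a shared source; the deviations of same-numbered libraries correlated at 0.372 over 9701 genes. With the replicate block, 20 members (17 of them enzymes) and 3059 of all genes were called lower, and 5 members, 8 genes of the further lists and 2197 of all genes were called higher. The members gained under that block were Srebf2, Fdps, Fdft1, Tm7sf2 and Nsdhl (lower) and Insig2, Npc1, Mylip and Abca1 (higher), with adjusted p from 0.00253 to 0.037. With the replicate block and the length and GC correction, 4 members and 9 genes of the further lists were called higher, and 2570 and 1944 of all genes lower and higher. In 2 alternatives chosen after seeing the data, members called lower and higher were 16 and 1 with library sizes taken before the filter, and 15 and 3 with edgeR's bias-adjusted quasi-dispersions. Of 419 fold changes of members under the alternatives, 359 kept their side of the threshold, 13 lost a call, 47 gained one and 0 called values changed sign. Depth limits Abca1, Fdps and Tm7sf2, each with under 210 counts in every library, and Nr1h3, which was not tested.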
